A study of Gallus gallus with 14 samples.

Results

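The male retinas of a lens experiment in chicks are described here: 7 of 14 sequenced retinas, 3 from eyes that wore a lens and 4 from control eyes. The sex of the chicks is not labelled, so the 7 libraries were chosen by their reads. A library counted as male where its 48 listed genes of the W, the sex chromosome found in hens alone, summed to under 4 CPM (read counts scaled to the same total in each library). The male libraries summed to 1.54 to 3.11 CPM and the other 7 to 604 to 655 CPM, so none lay near that limit. These W-linked values made the choice and are not tested. All birds were wild-type White Leghorn chickens, a layer breed, with an age of 3 days in the labels. The lens group wore a lens of -10 dioptres for 1 day, and total RNA of the retina was sequenced after depletion of ribosomal RNA. How the control eyes were handled is not described in the labels. The titles number the male lens libraries 4, 12 and 14 and the male controls 10, 17, 18 and 22, and these numbers name the libraries below. Lens library 4 belongs to a run of lens titles from 1 to 4, whose other members are female, and libraries 12 and 14 to a run from 12 to 14, whose library 13 is female. Library 4 is therefore also given apart from libraries 12 and 14. The titles also carry a letter, L for library 4 and R for libraries 12 and 14. The male controls hold both letters, R for 10 and 18 and L for 17 and 22. In a direct comparison of library 4 with libraries 12 and 14, title run and title letter cannot be told apart. The labels do not say that the retinas came from separate birds, so p-values measure the spread between these libraries, which may partly be technical.

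A negative lens places the image behind the retina, and the growing chick eye answers by elongating until the image is sharp again. The retina is thought to read the sign of the blur and to send signals through the pigment epithelium and choroid to the sclera. Its neurons and photoreceptors run a circadian clock in which ARNTL and CLOCK proteins switch on PER and CRY genes, whose products then hold them back, and eye growth itself has a daily rhythm. Male birds carry a pair of Z chromosomes, females 1 Z and a W, and birds compensate incompletely for the difference in Z dose.

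The Z chromosome, which the choice of libraries did not use, went with the label. Of 552 tested Z-linked genes, 500 (90.58%) averaged higher in the 7 male libraries than in the 7 female ones, with a median ratio of 1.311, while 28.78% of 10410 autosomal genes did so. In each library the median Z-linked level exceeded the median autosomal level by 0.45 to 0.588 on the log2 scale in males, against 0.0123 to 0.115 in females. Retinal genes went with the tissue label. The bipolar cell transcription factor VSX1 stood at 52.4 to 71.0 CPM in the male libraries and the neural transcription factor PAX6 at 28.8 to 33.7 CPM. The lens crystallin CRYAA and the melanin enzyme TYR stayed at or under 0.273 CPM. Other listed markers of lens and pigment epithelium were not so low: CRYBA4 averaged 15.8 CPM and MITF 17.2 CPM over the male libraries. Depth was estimated from the step between low CPM values, which put 1 read at 0.0203 to 0.0286 CPM in the male libraries. By this estimate each rested on a total of 35 to 49.2 M reads, of which 10.8 to 15.3 M reads fell on listed genes.

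Against the 4 male controls, no gene of the 3 male lens retinas passed the test. Limma called 0 of 10978 tested genes at an adjusted p under 0.05 (0%, smallest adjusted p 0.8511). Without adjustment, 533 genes (4.86%) had a p under 0.05, near the 549 that independent unchanged genes would give, with 401 of them higher (3.65%) and 132 lower (1.2%) in lens retinas. All 3 lens libraries lay above all 4 controls at 460 genes (4.19%) and below them at 157 (1.43%). Over all tested genes 63.6% of fold changes were positive, with a median log2 fold change of 0.0383. That median depended on the scaling: it was 0.00984 with median-of-ratios scaling and -0.00288 with quantile scaling. With 3 against 4 libraries an exact permutation test of a single gene has 35 splits. As run here, with the smaller one-sided p doubled, it cannot give a two-sided p under 0.0571. The count did not stay at 0 when libraries were left out: without lens library 4 it was 2 (SLC24A4 and PER3), without lens library 12 it was 2 and without control 18 it was 2, different genes each time. The comparisons of library 4 and of libraries 12 and 14 given below share the same 4 controls.

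The genes of smallest p in the male lens retinas included several that work in photoreceptors. In bulk RNA, fewer cells of a type and less RNA per cell cannot be told apart. CACNA2D4, an auxiliary subunit of the calcium channel at the photoreceptor synapse, stood at 60.9, 75.5 and 60.9 CPM in lens libraries 4, 12 and 14, against 46.7, 51.0, 42.8 and 48.0 CPM in controls 10, 17, 18 and 22. Every lens value lay above every control value, with a log2 fold change of 0.47 (SE 0.092; limma, adjusted p = 0.8511). Fold changes were computed as differences of log2(CPM + 1), so those of weakly expressed genes are understated. The calcium-binding phosphatase gene PPEF2, active in photoreceptors, stood at 37.6, 49.0 and 40.0 CPM in lens retinas, against 28.6, 34.9, 29.6 and 27.5 CPM in controls. The cone opsin gene OPN1MSW had 45.9, 41.7 and 37.4 CPM in lens retinas, against 19.15, 32.5, 23.3 and 30.4 CPM in controls. These 2 genes also kept lens and control libraries apart, with log2 fold changes of 0.47 and 0.67. On the lower side stood GUCA1C, a calcium sensor that regulates the photoreceptor guanylate cyclase, with 157, 163 and 175 CPM in lens retinas, against 205, 208, 235 and 196 CPM in controls. Its groups did not overlap either (log2 fold change -0.35, SE 0.073; limma, adjusted p = 0.8511).

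The other 20 of these 24 genes had varied roles. The clock activator ARNTL and the second listed locus NR1D1_1 were on the higher side. So were PAPPA, a protease that releases insulin-like growth factors from their binding proteins (log2 fold change 0.44), the intracellular cation channel gene TMEM38A (0.39), the septin gene SEPT8 (0.38), the ubiquitin ligase gene RNF213 (0.61), the nucleolar protein gene NPM1 (0.41), the diacylglycerol kinase gene DGKH (0.38) and the carbonyl reductase gene CBR1 (0.49). These 7 stood at 0.43 to 0.54 in library 4 alone and at 0.31 to 0.67 in libraries 12 and 14. On the lower side, NPTX2, a secreted protein that gathers glutamate receptors at synapses, had 51.0, 47.9 and 43.2 CPM in lens retinas, against 59.8, 74.3, 64.7 and 61.1 CPM in controls. EGLN3, an oxygen-sensing hydroxylase, had 7.98, 9.20 and 10.8 CPM in lens retinas, against 12.7, 20.7, 14.3 and 18.2 CPM in controls. In both genes the highest lens library lay under the lowest control, and their log2 fold changes were -0.45 and -0.75. PECAM1, an adhesion protein of endothelial and blood cells, BDH1A, an enzyme of ketone body use, the caspase inhibitor XIAP and the stress kinase MAP3K5 stood at -0.43, -0.47, -0.31 and -0.41. NIM1KZ, WDCPL, MAP7D3, SHC4 and SLCO5A1 made up the rest of the lower side, at -0.24 to -0.45. These 9 stood at -0.64 to -0.17 in library 4 alone and at -0.50 to -0.24 in libraries 12 and 14. Of the 24, all but NR1D1_1 kept the groups apart; the 24 were picked for small p, so that count is a description.

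**Figure D1:**
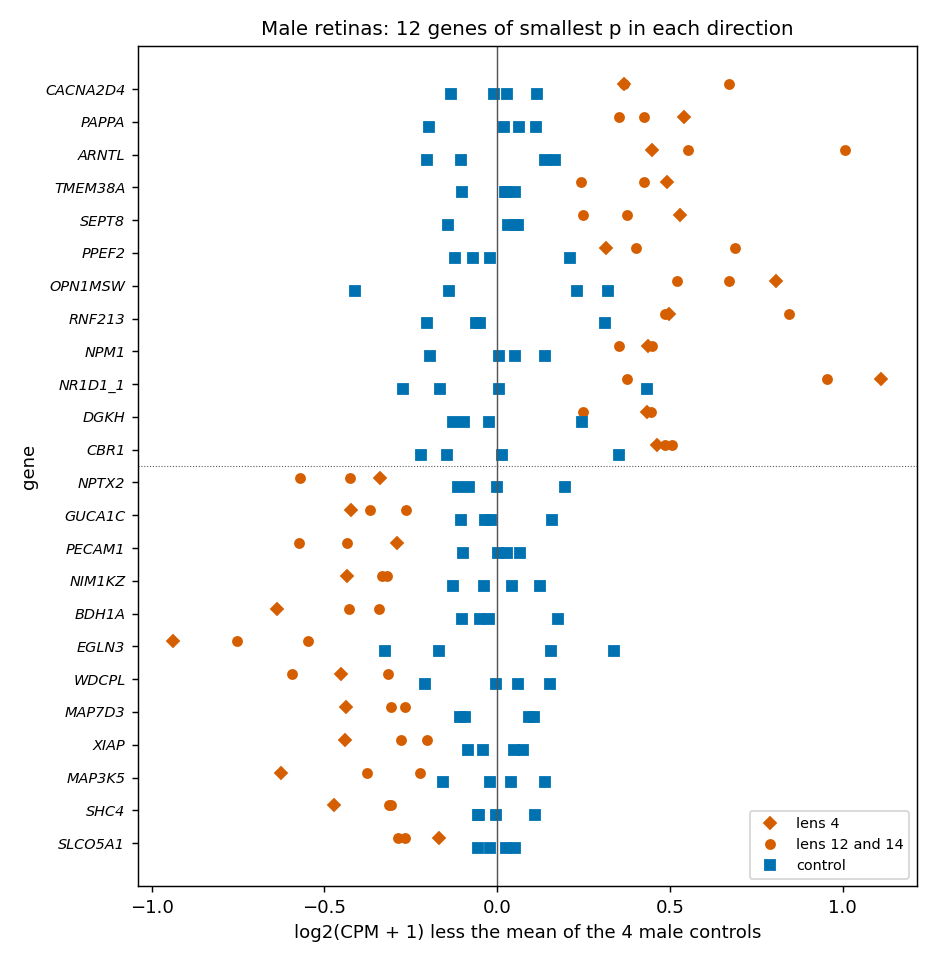
The 12 genes of smallest p in each direction in male retinas, 1 row per gene. Each point is 1 library, as its log2(CPM + 1) less the mean of the 4 male controls on the horizontal axis; orange diamonds are lens library 4, orange circles lens libraries 12 and 14, blue squares controls. Lens and control points overlap in NR1D1_1 alone, and lens library 4 is the outermost lens point for EGLN3, MAP3K5 and BDH1A and the innermost for PECAM1 and SLCO5A1.

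Of 36 tested phototransduction genes none was called, and 5 stood higher and 4 lower at an unadjusted p under 0.05, where 3.65% and 1.2% of all genes did so. The median log2 fold change of the list was -0.0134, beside 0.0383 over all tested genes. GNB1, a subunit of the photoreceptor G protein, had 120.0, 110.5 and 108 CPM in lens retinas, against 97.4, 102, 96.4 and 91.3 CPM in controls, with no overlap (log2 fold change 0.22). The red cone opsin gene OPN1LW had 99.5, 109 and 68.4 CPM in lens retinas, against 25.6, 61.2, 49.1 and 77.0 CPM in controls (0.86; limma, adjusted p = 0.9264). OPN1LW was named after its values were seen. Its values varied widely within both groups, and control 22 lay above lens library 14. PDE6B, a subunit of the rod phosphodiesterase, had 78.9 CPM in lens library 4, 65.1 and 58.9 CPM in lens libraries 12 and 14, and 78.0 to 90.9 CPM in controls. RGS9BP, which anchors the regulator that shuts the photoreceptor G protein off, had 329, 267 and 273 CPM in lens retinas, against 322 to 377 CPM in controls. For both genes libraries 12 and 14 lay under every control and library 4 lay among the controls.

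Some clock genes lay outside the control range in all 3 male lens libraries and others in libraries 12 and 14 but not in library 4. All 3 lens libraries lay above all controls in 1 of 6 tested activators and 1 of 6 output genes. They lay below in 1 of 12 repressors, where 4.19% of all genes lay above and 1.43% below. ARNTL, which with CLOCK drives the clock, had 18.8, 28.1 and 20.2 CPM in lens libraries 4, 12 and 14, against 15.3, 14.95, 12.5 and 11.6 CPM in controls 10, 17, 18 and 22. All 3 lens libraries lay above all controls (log2 fold change 0.67, SE 0.14; exact permutation test, two-sided p = 0.0571, the smallest it can give; limma, adjusted p = 0.8511). CLOCK had 98.3 and 97.9 CPM in libraries 12 and 14, 82.4 CPM in library 4 and 78.4 to 83.0 CPM in controls, so library 4 lay within the control range. PER2, a repressor that ARNTL and CLOCK switch on, had 207, 201 and 198 CPM in lens retinas, against 214, 247, 251 and 279 CPM in controls. Again the groups did not overlap (log2 fold change -0.29, SE 0.082; exact permutation test, two-sided p = 0.0571; limma, adjusted p = 0.9264). Over the same 3 lens libraries, the exact permutation test gave a two-sided p of 0.229 for PER3 and 0.114 for NFIL3. ARNTL was also picked above for its small p, and the genes of this test were chosen with earlier results known. These exact p-values are therefore descriptions.

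PER3, another member of the period family, fell in lens libraries 12 and 14. They had 50.4 and 46.2 CPM, against 86.1, 73.0, 88.7 and 92.7 CPM in controls 10, 17, 18 and 22, while lens library 4 had 92.3 CPM. Both libraries lay well under the lowest control, and library 4 lay near the highest (log2 fold change of libraries 12 and 14 against controls -0.80, SE 0.095; limma, adjusted p = 0.0372). The call was made under 8 of 16 alternative settings, whose adjusted p ranged from 0.00594 to 0.824, with log2 fold changes from -0.87 to -0.74. It was lost without control 10, 18 or 22 and without lens library 12 or 14. With no filter, with quantile scaling and with the title letter as a covariate it was lost as well. On GRCg6a, PER3 is listed on chromosome 21 from 291189 to 310410, minus strand. In the same comparison limma called 2 genes in all (0.0182%), both lower, and 497 had an unadjusted p under 0.05 (4.53%; 2.81% higher and 1.71% lower).

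NFIL3, a repressor with a daily rhythm that lies on Z, had 29.2 and 28.5 CPM in lens libraries 12 and 14, against 16.0, 18.4, 17.8 and 20.3 CPM in controls, and 19.8 CPM in lens library 4. Libraries 12 and 14 lay above every control, library 4 among them (0.64 for 12 and 14, SE 0.099; limma, adjusted p = 0.181; range over alternatives 0.065 to 0.844). Of 12 tested clock repressors, 5 stood lower and none higher at an unadjusted p under 0.05 in libraries 12 and 14, where 1.71% of all genes stood lower. These were PER2, PER3, the nuclear receptor NR1D2 (106 and 114 CPM, against 119 to 148 CPM in controls), BHLHE40 (4.20 and 3.59 CPM, against 4.44 to 5.63 CPM) and BHLHE41 (4.63 and 5.90 CPM, against 5.93 to 7.94 CPM). In library 4, BHLHE40 stood on the other side, at 9.23 CPM. Taken against libraries 12 and 14 directly, library 4 had more PER3 (0.92) and BHLHE40 (1.07) and less NFIL3 (-0.52), none past the threshold (limma, adjusted p = 0.0803, 0.0803 and 0.137).

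Among the targets through which the clock acts, the transcription factor genes TEF and HLF had 52.5 and 290.5 CPM in library 4. Both lay above all controls (32.2 to 41.7 and 214 to 247 CPM), as library 4 did at 36.2% of all tested genes. Libraries 12 and 14 had 38.0 and 32.3 CPM of TEF and 203 and 206 CPM of HLF. The deadenylase NOCT had 6.22, 5.12 and 4.37 CPM in the lens libraries, against 3.15 to 4.24 CPM in controls, with no overlap. ASMT, which makes melatonin, had 11.7, 13.4 and 10.2 CPM in lens retinas, against 13.6 to 15.2 CPM in controls. All 6 tested members of the clock output list had a positive fold change over the 3 lens libraries (median 0.148) and none was called, where 63.6% of all genes were positive with a median of 0.0383. In library 4 alone 6 of 6 were positive (median 0.281), and in libraries 12 and 14 it was 3 of 6 (median 0.0397). Female lens library 13, of the same run of titles as 12 and 14, had 46.8 CPM of PER3, 27.7 CPM of NFIL3 and 98.9 CPM of CLOCK, against 55.6 to 68.6, 14.7 to 20.7 and 91.7 to 99.8 CPM in the female controls. Female lens libraries 1 to 3, of the run of library 4, had 70.5 to 75.6 CPM of PER3. Other clock genes differed from the female controls in that run too. Limma called 3 of 6 tested activators higher and 1 lower in libraries 1 to 3, and 2 of 6 output genes higher. Over all tested genes 5.8% were called higher and 5.63% lower there. The titles follow the runs, so a difference between the runs and anything that went with their making cannot be told apart. Among the male lens libraries the title letter splits library 4 from libraries 12 and 14 as well.

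**Figure D2:**
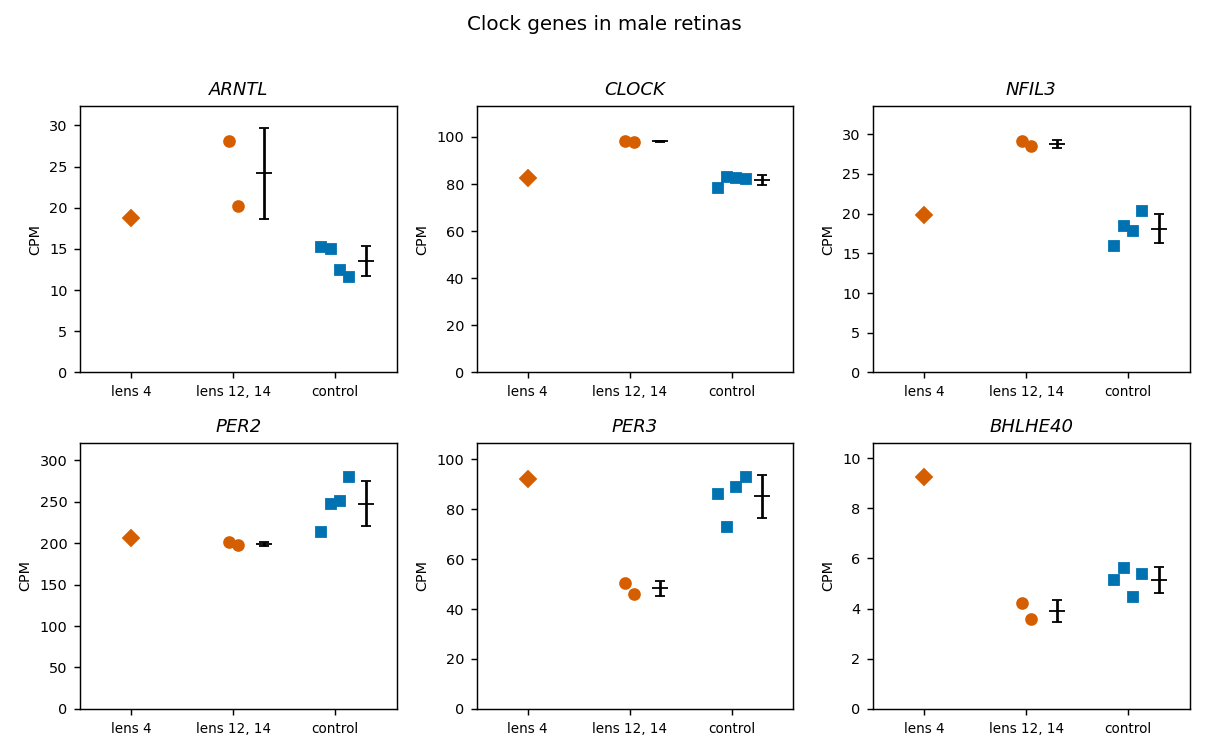
CPM of 6 clock genes in male retinas, 1 point per library; bars give the mean and SD of groups with more than 1 library. PER2 is lower and ARNTL higher in all 3 lens libraries, whereas PER3, NFIL3, CLOCK and BHLHE40 place lens library 4 (diamonds) with the controls or beyond them and lens libraries 12 and 14 apart from them.

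The second gene that fell in lens libraries 12 and 14 was SLC24A4, which exchanges sodium for calcium and potassium across the cell membrane. It had 275 and 270.1 CPM in libraries 12 and 14, against 410.0, 384, 427 and 385 CPM in controls 10, 17, 18 and 22, and 391 CPM in lens library 4. Libraries 12 and 14 lay far under the controls and library 4 within their range (-0.56 for 12 and 14, SE 0.064; limma, adjusted p = 0.0372). The call was made under 7 of 16 alternatives (limma, adjusted p 0.0139 to 0.824). It was lost without control 10, 17, 18 or 22 and without lens library 12 or 14. With no filter, with quantile scaling and with all 14 libraries in 1 fit it was lost as well. In females, lens library 13 had 294 CPM and lens libraries 1 to 3 had 301 to 314 CPM, while controls had 275, 373 and 370.4 CPM, so the female groups overlapped. On GRCg6a, SLC24A4 is listed on chromosome 5 from 44851002 to 44936137, plus strand.

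Over all genes, libraries 12 and 14 both lay above every male control at 943 genes (8.59%) and below at 483 (4.4%). Besides genes given above, those of smallest p on the higher side were the sarcomere protein gene MYPN (0.44), PGAP1, which trims lipid anchors (0.35), the exonuclease DIS3L (0.66) and the lipase PNPLA3 (0.29). DIS3L had 44.8 and 35.4 CPM in libraries 12 and 14, against 20.7 to 31.6 CPM in controls, and 19.3 CPM in library 4. In the glycolysis and hypoxia list 2 of 28 stood higher and 7 lower at an unadjusted p under 0.05 in libraries 12 and 14, none of them called, where 2.81% and 1.71% of all genes did so. Its median was -0.0161, beside 0.028 over all genes. Lactate dehydrogenase LDHB stood higher in both (185 and 176 CPM, against 127 to 161 CPM in controls), and the collagen hydroxylase P4HA1 averaged lower (51.2 and 41.7 CPM, against 51.2 to 62.3 CPM). RBP4, the carrier of vitamin A, had 144 and 168 CPM in libraries 12 and 14, against 189 to 274 CPM in controls and 268 CPM in library 4.

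A list of genes that studies of defocus in chicks commonly follow had 23 tested members. It was drawn up with earlier results of these data known, so its counts are a description. Limma called 0 of the 23 in males. At an unadjusted p under 0.05, 3 stood higher and 3 lower over the 3 lens libraries, where 3.65% and 1.2% of all genes did so. These were ARNTL, NFIL3 and the neuronal nitric oxide synthase NOS1 on the higher side, and PER2, the glucagon gene GCG and the glutamate receptor gene GRM5 on the lower. GCG had 11.3, 11.8 and 12.99 CPM in lens retinas, against 18.7, 17.1, 16.0 and 12.5 CPM in controls. Control 22 lay inside the lens range and the other controls above it (-0.38, SE 0.13; limma, adjusted p = 0.9264). GRM5 had 44.9, 50.9 and 50.4 CPM in lens retinas, against 56.8, 54.4, 58.8 and 56.8 CPM in controls. Its groups did not overlap, at a log2 fold change of -0.22 (SE 0.069).

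Library 4 lay outside the control range in several other genes of this group, none of them called. It did so at many genes of any kind, above all 4 controls at 36.2% of all tested genes and below them at 18.6%. NOS1 had 5.11 CPM in library 4, 2.48 and 3.17 CPM in libraries 12 and 14, and 1.71 to 2.86 CPM in controls. The growth factor IGF1 had 4.78, 7.49 and 6.31 CPM in lens retinas, against 6.40 to 8.27 CPM in controls, library 4 being the lowest. The immediate early gene EGR1, whose product is used as a marker of the sign of defocus in amacrine cells, had 15.1, 9.88 and 11.5 CPM in lens retinas, against 8.84, 18.8, 7.61 and 15.5 CPM in controls. Its groups overlapped fully (exact permutation test, two-sided p = 0.971). The thyroid hormone activator DIO2 had 54.0 CPM in library 4, 78.0 and 84.5 CPM in libraries 12 and 14, and 71.2 to 88.7 CPM in controls. The retinoid receptor gene RXRA had 7.02 CPM in library 4, 2.83 and 1.95 CPM in libraries 12 and 14, and 1.65 to 3.98 CPM in controls. NOS1 and RXRA thus stood higher in library 4 than in any control, and IGF1 and DIO2 lower. The dopamine receptor gene DRD4 had 31.9, 29.1 and 29.7 CPM in lens retinas, against 22.6 to 33.8 CPM in controls.

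Other pathway lists held no called gene over the 3 male lens libraries either. Of 26 cholesterol genes 24 had a positive fold change, where 63.6% of all genes did, with a median of 0.091 beside 0.0383 over all genes. SCAP, the sterol sensor, had 15.9, 13.1 and 13.04 CPM in lens retinas, against 10.3 to 14.1 CPM in controls. Of 14 genes of the switch from glucose to fat as fuel, 13 were positive, with a median of 0.106. Among transmitter genes the GABA receptor subunit GABRR1 had 20.9, 17.1 and 15.5 CPM in lens retinas, above the 13.3 to 15.1 CPM of controls. The thyroid hormone transporter SLCO1C1 had 4.14, 5.10 and 5.17 CPM, above the 3.07 to 3.88 CPM of controls. Of 14 tested Mueller glia genes, 10 had a positive and 4 a negative fold change (median 0.156). At an unadjusted p under 0.05, 3 stood higher and none lower, where 3.65% and 1.2% of all genes did so. In libraries 12 and 14 alone, 3 stood higher and 1 lower at that p, where 2.81% and 1.71% of all genes did so. Among the higher members, VIM had 155, 138 and 160.2 CPM in lens retinas, against 106 to 148 CPM in controls. Glutamine synthetase GLUL had 704, 720.2 and 629 CPM, against 441 to 683 CPM. The summed level of the 19 listed Mueller glia markers was 1771 to 1801 CPM in lens retinas and 1322 to 1796 CPM in controls. The part of the glial level in other results was not tested.

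Lens library 4 stood farther from the controls than any other male library. It differed from their mean by more than 1.5-fold at 543 genes (4.95%), against 120 (1.09%) in lens library 12 and 98 (0.893%) in lens library 14. Each control set against the other 3 gave 109 to 188 genes (0.993% to 1.71%). On the first principal component of the 7 libraries, with 34.3% of the variance, library 4 lay at -24.7, lens libraries 12 and 14 at 1.03 and 5.37 and the controls between -1.57 and 11.4. Limma called 1 gene in library 4 (0.00911%), with the single library assumed to vary like the other groups. Before adjustment 1957 genes (17.8%) had p under 0.05, 1487 higher (13.5%) and 470 lower (4.28%). Library 4 lay above all 4 controls at 3973 genes (36.2%) and below them at 2038 (18.6%). Its median log2 fold change over all tested genes was 0.0605, against 0.025 with median-of-ratios scaling and -0.0147 with quantile scaling. The count of calls varied with the libraries in the fit, for a cause that was not tested: it was 423 with all 14 libraries in 1 fit, 163 without control 10, 123 without control 22, 4 without lens library 12 or 14 and 0 without control 17.

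The called gene was NEK10, a kinase of the NIMA family. Lens library 4 had 12.5 CPM, lens libraries 12 and 14 had 4.04 and 3.35 CPM, and controls 10, 17, 18 and 22 had 3.05, 2.33, 3.15 and 2.43 CPM. It rose in library 4 (log2 fold change 1.86, SE 0.18; limma, adjusted p = 0.0123), and libraries 12 and 14 stood slightly above all controls. The call was made under 13 of 15 alternatives, and was lost with no filter on low values and without control 17 (adjusted p 0.00189 to 0.109). Female lens libraries 1, 2 and 3 had 15.2, 10.3 and 8.56 CPM, female lens library 13 had 4.58 CPM and female controls 3.08 to 5.00 CPM. The high values thus lay in all 4 libraries of the first run of titles, male and female. On GRCg6a, NEK10 is listed on chromosome 2 from 38166793 to 38378674, minus strand.

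No other gene passed the threshold in library 4, and 6 of those with the next smallest p are given here. The chloride exporter SLC12A5 had 48.1 CPM in library 4, 22.5 and 22.7 CPM in libraries 12 and 14 and 20.9 to 28.8 CPM in controls. The sodium-calcium exchanger SLC8A1 had 41.3, 22.2 and 26.0 CPM in lens libraries 4, 12 and 14, against 21.7 to 24.2 CPM in controls, and the G protein regulator RGS8 had 41.6, 25.2 and 24.6 CPM, against 22.6 to 26.1 CPM. TNR, a matrix protein of the nervous system, had 34.0, 17.3 and 17.1 CPM, against 14.9 to 20.1 CPM. In these 4 genes library 4 stood highest, at log2 fold changes of 0.74 to 0.94 against controls. Lens library 14 also lay above all controls in SLC8A1. In the female lens libraries 1 to 3, SLC12A5 stood at 26.0 to 31.1 CPM, against 21.7 to 31.9 CPM in female controls, so the level of library 4 had no counterpart there. On the lower side stood RPL22L1, a relative of a ribosomal protein, with 8.88 CPM in library 4, 16.8 and 15.4 CPM in libraries 12 and 14 and 15.02 to 16.9 CPM in controls. ADGRV1, a very large adhesion receptor of photoreceptors, had 304, 422 and 404 CPM in lens libraries 4, 12 and 14, against 383 to 404 CPM in controls.

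In the list of cytosolic chaperones, 7 of 24 tested genes stood lower in library 4 at an unadjusted p under 0.05, and none was called. HSP90AA1, the inducible form of HSP90, had 287, 505 and 577 CPM in lens libraries 4, 12 and 14, against 374, 613, 637 and 609 CPM in controls 10, 17, 18 and 22. Library 4 was the lowest and control 10 the next, while lens libraries 12 and 14 lay between control 10 and the other controls (-0.92 for library 4, SE 0.24; limma, adjusted p = 0.0912; range over alternatives 0.00367 to 0.247). Another member of the list, DNAJA1, on Z, had 16.2, 30.2 and 33.3 CPM in the lens libraries, against 23.04, 36.4, 36.7 and 35.3 CPM in controls. DNAJA4 had 11.8, 18.6 and 19.1 CPM, against 15.1, 19.7, 19.6 and 24.0 CPM. The order of libraries was the same in DNAJA1, with control 10 again next to library 4. The list also holds the mitochondrial HSPE1 and the transcription factor gene HSF2, so its counts and medians are not of cytosolic chaperones alone. None of the 24 stood higher in library 4 at that p, where 4.28% of all genes stood lower; 18 had a negative and 6 a positive fold change, with a median of -0.25. In libraries 12 and 14 none did and the median was -0.00393.

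Without control 10 both HSP90AA1 and DNAJA1 passed the threshold in library 4 (limma, adjusted p = 0.00367 and 0.00626). Over the 3 lens libraries together HSP90AA1 stood at -0.32 (exact permutation test, two-sided p = 0.343). In female lens libraries 1 to 3 the 2 genes fell, to 214 to 300.2 CPM of HSP90AA1 and 10.5 to 14.5 CPM of DNAJA1, against 529 to 592 and 24.6 to 26.3 CPM in female controls (limma, adjusted p = 0.000662 and 0.00133). Female lens library 13 had 599.6 and 28.5 CPM. Ribosomal protein genes, 68 tested, had a median of -0.107 in library 4 with 6 lower at an unadjusted p under 0.05, where 4.28% of all genes stood lower. In libraries 12 and 14 their median was 0.0414 with 2 higher, where 2.81% of all genes stood higher.

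**Figure D3:**
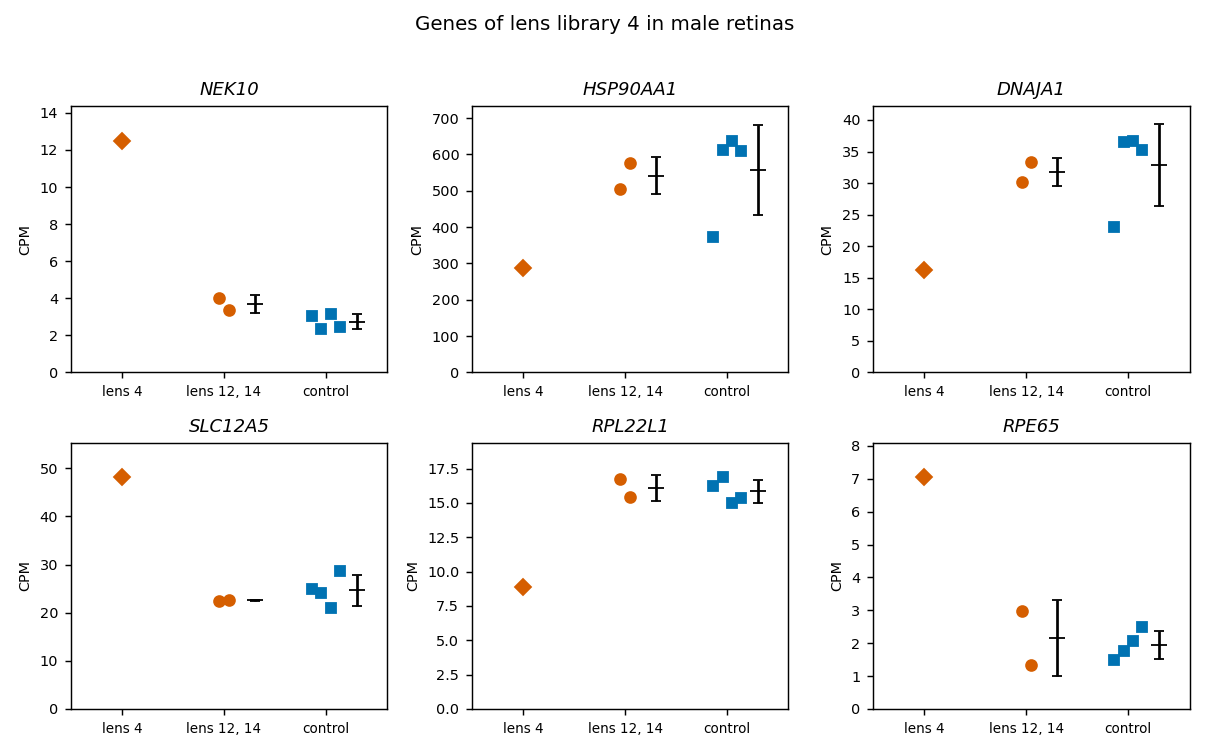
CPM of 6 genes in male retinas by library, drawn as for the clock genes. Lens library 4 (diamonds) is above all other male libraries in NEK10, SLC12A5 and RPE65 and below them in HSP90AA1, DNAJA1 and RPL22L1; control 10 is the lowest control square in HSP90AA1 and DNAJA1.

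Markers of tissue outside the neural retina moved with library 4 in part. RPE65, an enzyme of the pigment epithelium, had 7.04 CPM in library 4, 2.96 and 1.34 CPM in libraries 12 and 14 and 1.49 to 2.49 CPM in controls. The 16 listed pigment epithelium markers summed to 39.7 CPM in library 4, 27.3 and 25.7 CPM in libraries 12 and 14 and 27.2 to 35.8 CPM in controls, 7 of them reaching a mean of 1 CPM, and TTR and TYR stayed at or under 0.62 CPM in every male library. Scleral and connective tissue markers, 19 listed, summed to 90.0, 60.9 and 65.7 CPM in lens libraries 4, 12 and 14, against 54.2 to 81.3 CPM in controls. COCH was the member that stood out, at 10.5 CPM in library 4, 2.88 and 4.27 CPM in libraries 12 and 14, and 3.94 to 5.38 CPM in controls. Oligodendrocyte, microglial and lens crystallin markers of library 4 summed to values inside the range of the controls. Of the red blood cell markers 2 were in the table, summing to 34.1 CPM in library 4, 27.1 and 20.7 CPM in libraries 12 and 14 and 24.9 to 27.6 CPM in controls, nearly all of it the transferrin receptor gene TFRC. The part of these tissues in the other values of library 4 was not tested.

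The horizontal and amacrine, bipolar and ganglion cell lists held higher but no lower members in library 4 at an unadjusted p under 0.05. As 4.28% of all genes stood lower, lists of this size would hold few lower members or none. They held no called member. Phototransduction, GABA and glycine, and glutamate genes had members on both sides, and the acetylcholine list held lower but no higher members. The median log2 fold changes of these other lists were 0.0285, 0.0701, 0.0871 and 0.0441 in that order. Horizontal and amacrine cell markers stood higher in 7 of 22 (median log2 fold change 0.112), bipolar markers in 5 of 16 (0.0314) and ganglion cell markers in 4 of 17 (0.203), where 13.5% of all genes stood higher and the median was 0.0605. The transcription factor genes ONECUT2 (78.1 CPM, against 56.1 to 60.2 CPM in controls), TFAP2B (90.9 against 62.9 to 72.2 CPM) and OTX2 (35.8 against 20.5 to 27.0 CPM) were among them, and none passed the threshold. Lens libraries 12 and 14 had 52.9 and 57.3 CPM of ONECUT2, 68.1 and 67.3 CPM of TFAP2B and 22.98 and 23.5 CPM of OTX2, near the controls. Counted by sign alone, some members of these lists went down in library 4. A negative fold change was found in 9 of 22 horizontal and amacrine, 6 of 16 bipolar and 1 of 17 ganglion cell markers. Over all tested genes 60.2% had a positive one. Genes of the fuel switch stood higher in 6 of 14, among them CPT1A, which admits fatty acids to mitochondria (34.8, 25.8 and 25.3 CPM in lens libraries 4, 12 and 14, against 17.7 to 25.2 CPM in controls), and PDK4, which restrains the use of pyruvate (38.6, 27.1 and 21.3 CPM, against 14.7 to 27.3 CPM).

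Set directly against lens libraries 12 and 14, library 4 had no gene past the threshold in limma (smallest adjusted p 0.0803). Before adjustment 1764 genes had p under 0.05 (16.1%), 1184 higher (10.8%) and 580 lower (5.28%). With all 14 libraries in 1 fit, 144 were called, and 9 were called without control 10. PER3, NEK10, SLC12A5, RGS8, TNR and BHLHE40 led the higher side, together with the membrane protease ST14 (7.75 CPM in library 4, against 3.30 and 3.62 CPM in 12 and 14) and CMYA5 (34.5 against 20.6 and 21.3 CPM). On the lower side stood the chemokine receptor gene CXCR4 (5.31 against 13.1 and 13.8 CPM), KLHL2, an adaptor of a ubiquitin ligase (62.9 against 110.5 and 120.4 CPM), RNF219 (29.3 against 51.7 and 53.7 CPM), WDR17, CCDC18 and the phagocytic receptor gene MEGF10.

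Genes chosen in female retinas allowed a reading of the males that shared no library with the choice. Limma called 1255 genes (11.4%) in female lens libraries 1 to 3 against the 3 female controls, 637 higher (5.8%) and 618 lower (5.63%), with median log2 fold changes of 0.395 and -0.409. Of these, 1011 (80.6%) had the female direction in male lens library 4, 670 (53.4%) in lens library 12 and 630 (50.2%) in lens library 14. The 637 genes higher in females had a median of 0.24 in library 4, 0.041 in library 12 and 0.00575 in library 14; the 618 lower ones had medians of -0.146, 0.0126 and 0.00242. Over all tested genes the medians of the 3 libraries were 0.0605, 0.0364 and 0.0199. Under this choice the share was highest in library 4, which is of the same run of titles as the female libraries that chose the genes.

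A high share was also found in a male control. Control 10, set against the other 3 male controls, had the female direction in 934 of the 1255 genes (74.4%). Controls 17, 18 and 22 had it in 41.8%, 46.2% and 34.8%. Each of these 3 was set against a mean that included control 10, so the control shares are not independent. The medians of control 10 were 0.0823 for the genes higher in females and -0.149 for those lower. Library 4 without control 10 among its controls had the female direction in 82.9%, and libraries 12 and 14 together in 60.9%, where they had 52% with all 4 controls. Among the 100 genes of smallest p in females the shares were 91% in library 4 and 87% in control 10. The order changed with female library 13 added to the choice. Among the 100 genes of smallest p in all 4 female lens libraries, the share in the female direction was 69% in library 4, 51% in library 12, 71% in library 14 and 80% in control 10. Limma then called 6 genes in females (0.0547%), of which 66.7% had the female direction in library 4, 16.7% in library 12, 83.3% in library 14 and 50% in control 10. The female lens libraries and library 4 share a run of titles, so the lens and that run cannot be told apart in these values, and why control 10 shares the direction was not tested.

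**Figure D4:**
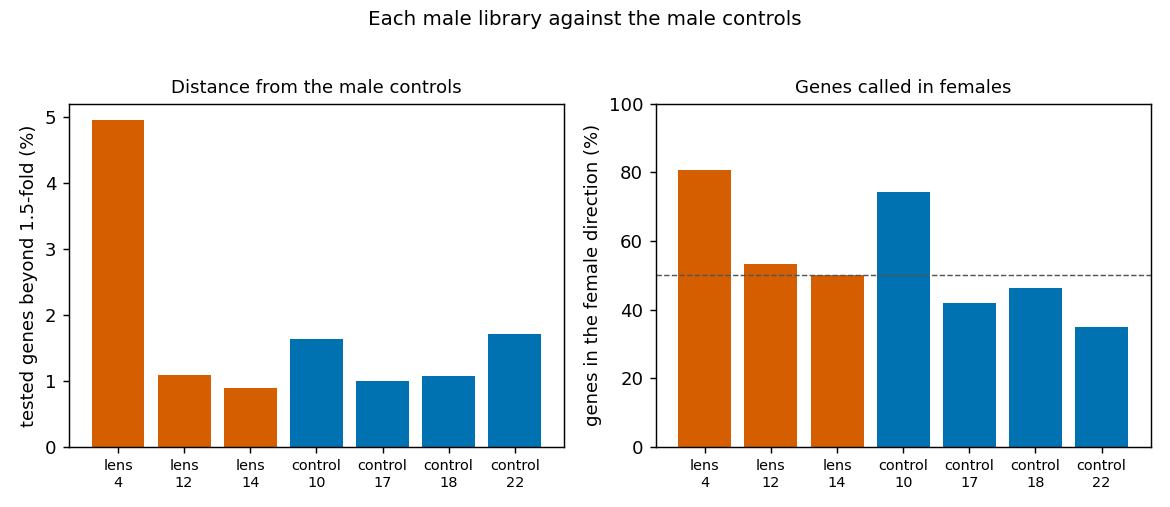
Each male library against the male controls, lens libraries in orange and controls in blue. A lens library is set against the mean of the 4 controls and a control against the mean of the other 3, so the control bars are not independent. The left bars give the share of tested genes beyond 1.5-fold, 4.95% in lens library 4 and at most 1.71% elsewhere; the right bars give the share of the 1255 genes called in females that had the female direction, 80.6% in lens library 4 and 74.4% in control 10, with a dashed line at 50%.

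Whether the lens difference itself was unlike in males and females was tested over all 14 libraries. Limma called 0 genes, the smallest adjusted p being 0.2334. Before adjustment 911 genes had p under 0.05 (8.3%), 667 of them with a more positive fold change in males (6.08%) and 244 with a more positive one in females (2.22%). The female lens group holds 3 libraries of the first run of titles and 1 of the second, the male group 1 and 2, so sex and title run are partly mixed. PECAM1 had 16.2, 13.1 and 14.6 CPM in male lens retinas, against 20.1, 20.4, 18.6 and 21.03 CPM in male controls. In females it had 20.2, 23.3, 20.2 and 23.8 CPM in lens libraries 1, 2, 3 and 13, against 15.7, 20.1 and 15.4 CPM in controls. Lens values lay below controls in males and above them in females, without overlap in either sex (difference of log2 fold changes -0.78, SE 0.14; limma, adjusted p = 0.2334; range over alternatives 0.0639 to 0.58).

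The histone gene HIST1H111L, of a family of near-identical copies among which reads can be shared, had 9.43, 8.96 and 9.13 CPM in male lens retinas, against 7.04, 8.84, 7.82 and 8.78 CPM in male controls. In female lens retinas it had 4.51, 4.92, 5.84 and 4.94 CPM, against 7.73, 8.96 and 9.42 CPM in female controls. All male lens values stood narrowly above the male controls and all female lens values far under the female controls, a difference of 0.84 (SE 0.14; limma, adjusted p = 0.2334). NPM1 had 11.5, 11.6 and 10.8 CPM in male lens retinas, against 7.06 to 9.15 CPM in male controls, and 8.79 to 9.90 CPM in female lens retinas, against 9.25 to 10.9 CPM in female controls. The carboxypeptidase CPD had 10.1, 10.8 and 10.2 CPM in male lens retinas, against 7.26 to 9.18 CPM in male controls, and 6.90 to 8.47 CPM in female lens retinas, against 8.72 to 8.98 CPM in female controls. For PER2 the lens difference was -0.29 in males, and female lens libraries 1 to 3 had 151 to 165 CPM and library 13 had 204 CPM, against 228 to 251 CPM in female controls. The difference between the sexes for PER2 did not pass (0.25, SE 0.14; limma, adjusted p = 0.64).

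**Figure D5:**
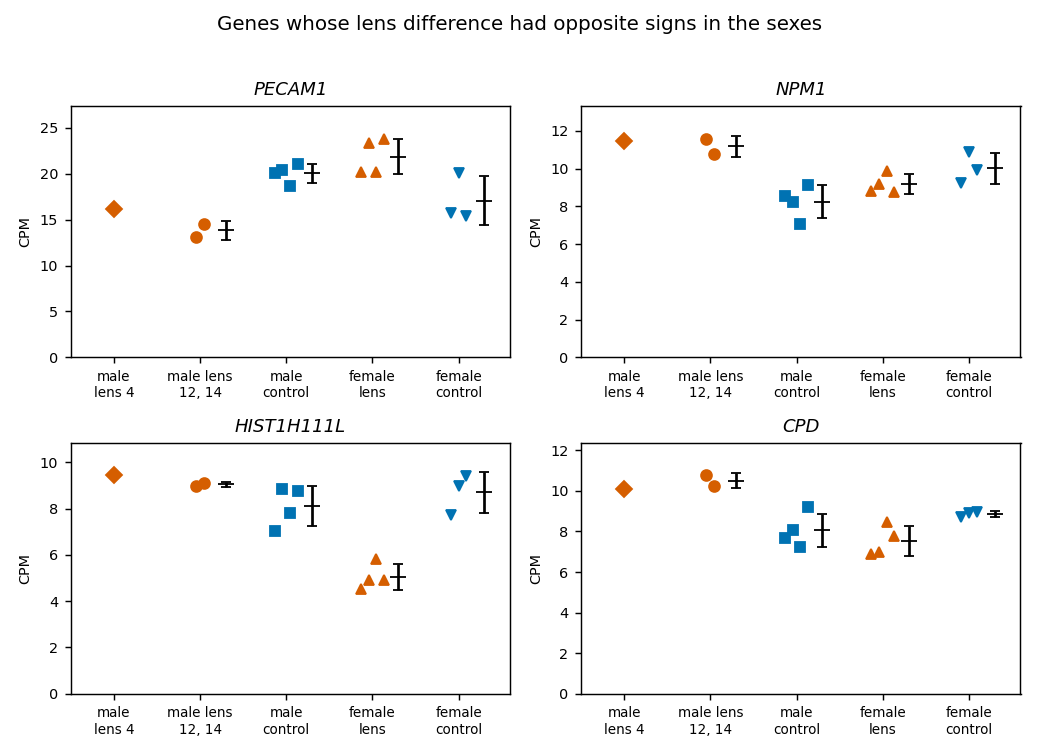
CPM of 4 genes by sex and treatment, 1 point per library with mean and SD of groups with more than 1 library; groups are male lens library 4 (diamonds), male lens libraries 12 and 14, 4 male control, 4 female lens and 3 female control libraries. PECAM1 is lower with the lens in males and higher in females, and NPM1, HIST1H111L and CPD are higher with the lens in males and lower in females, NPM1 with overlap in females.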

How the data were processed

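Retinal total RNA was sequenced from stranded libraries depleted of ribosomal RNA, per the labels' protocols. The authors deposited 1 table of CPM values for 18631 genes, with gene coordinates on GRCg6a. The submitters' processing notes name STAR and Partek without role or version; the read assignment method was not given in the sources used here. Reads of overlapping genes and of paralogs may therefore be shared. In each male library 94% to 95.1% of low values (up to 20 steps) were whole multiples of 1 read within 0.05 steps, too few to be treated as counts. The deposited constant of 1e-04 stands in cells without reads. The table held 0 columns of other series. Symbols, 15419 of which matched RefSeq names of GRCg7b (names only), gave the chromosome assignment.

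The test took the 10978 genes that averaged 1 CPM or more across the 14 libraries; 7605 lay under that filter, and 48 W-linked genes, which chose the libraries, were not tested. Limma 3.58.1 (R 4.3.3, with Python 3.11.15 for tables) was run on log2(CPM + 1) with a mean-variance trend and Benjamini-Hochberg adjustment over all tested genes, and was tested on simulated data. Library 4, libraries 12 and 14, and controls shared 1 estimate of spread. Single genes were tested by exact permutation over libraries. Lists are described by counts and medians. Members and lists were chosen with earlier results of these data known. Named genes were the 12 of smallest p in each direction for all male lens libraries and 8 for each other comparison (symbols not starting with LOC, upper 75% of mean level), all tested defocus and clock genes, and the 3 of smallest p in each other list. Alternatives were other pseudocounts, filters, scalings, a robust variance, the title letter as covariate, all 14 libraries in 1 fit, and leaving out each library. Promoter sequences were not used here, and a few named genes are not reported here. The number of libraries limits the precision, and intervals cover the spread between libraries alone.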

Additional observations from a re-analysis of the deposited data

Results flagged for a closer look

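Among 258 named genes, the 4 male controls held 1 library far from the other 3 in 22, by the gap to its neighbour relative to the whole range; chance flags about 1 in 20 groups. Of these, 21 are reported. The distant library lay below the others for SEPT8 in control 18 (35.5 CPM, against 40.1 to 41.0 CPM), ACAP3 in control 18 (92.2 CPM, against 103 to 105 CPM) and FAM210A in control 10 (14.3 CPM, against 16.4 to 16.6 CPM). So it was for CLOCK in control 10 (78.4 CPM, against 82.3 to 83.0 CPM), CRY2 in control 18 (47.6 CPM, against 55.7 to 56.2 CPM) and JUN in control 18 (5.93 CPM, against 7.17 to 7.34 CPM). The same held for DNAJA1 in control 10 (23.04 CPM, against 35.3 to 36.7 CPM), HSP90AA1 in control 10 (374 CPM, against 609 to 637 CPM) and CRELD2 in control 22 (4.83 CPM, against 5.66 to 5.68 CPM). Also below were BFSP1 in control 10 (2.48 CPM, against 3.43 to 3.58 CPM) and RPS2 in control 18 (20.02 CPM, against 24.4 to 24.7 CPM). The distant library lay above the others for RARA in control 22 (2.89 CPM, against 2.41 to 2.43 CPM) and DUSP6 in control 22 (23.3 CPM, against 20.1 to 20.5 CPM). So it was for SPRY2 in control 10 (3.47 CPM, against 2.49 to 2.53 CPM), DUSP7 in control 10 (19.2 CPM, against 13.6 to 14.4 CPM) and NDRG1 in control 10 (75.1 CPM, against 59.9 to 62.4 CPM). The same held for SCAP in control 22 (14.1 CPM, against 10.3 to 10.96 CPM), IRS2 in control 10 (45.7 CPM, against 35.3 to 36.1 CPM) and LRP5 in control 17 (11.2 CPM, against 10.67 to 10.74 CPM). Also above were GABBR2 in control 17 (80.5 CPM, against 76.5 to 77.1 CPM) and COCH in control 10 (5.38 CPM, against 3.94 to 4.18 CPM). The ranges in brackets are those of the other 3 controls.

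For the sexes, only the genes of smallest p for the difference of the lens effect were looked at, 8 in each direction. In 12 of these, 11 of them reported, every lens library lay on 1 side of the mean of its controls in males and on the opposite side in females. The genes were picked for such a difference, which makes opposite signs likely, so the count is a description. Male less female, the difference of log2 fold changes was 0.84 for HIST1H111L, 0.55 for CPD, 0.35 for SOX5, 0.31 for ZFR and 0.53 for NPM1. It was -0.78 for PECAM1, -0.49 for RER1, -0.55 for CPNE3, -0.66 for DYX1C1, -0.49 for WDR82 and -0.36 for MAT2B. None passed the test of the difference over all 14 libraries (limma, smallest adjusted p 0.2334 over all tested genes).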

How the results depend on the processing

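No paired analysis was possible because the male lens libraries (4, 12, 14) and controls (10, 17, 18, 22) share no title number. Over the 3 male lens libraries, leaving out 1 library gave 0 to 2 called genes. For libraries 12 and 14, whose count was 2, there were 0 with no filter, 0 with quantile scaling, 1 with the title letter as covariate, 1 with all 14 libraries in 1 fit, and 0 to 4 with 1 library left out. For library 4 against controls, whose count was 1, there were 137 with a pseudocount of 5, 74 with a robust variance, 423 with all 14 libraries in 1 fit, and 0 to 163 with 1 library left out. For library 4 against libraries 12 and 14, whose count was 0, these were 14, 22, 144 and 0 to 9. The difference between the sexes gave 0 to 1. The share of genes called in females with the female direction was 80.6% in library 4, 91% for the 100 genes of smallest p, 66.7% for the 6 genes called with all 4 female lens libraries, and 76.4% to 86% with 1 library left out. For libraries 12 and 14 it was 52%, 54%, 66.7% and 45.6% to 60.9%. The causes of these shifts were not tested. Of 3650 alternatives over 226 named values none reversed, 19 ended a call and 150 brought one. Depth, with 1 read worth an estimated 0.0203 to 0.0286 CPM, limits genes near 1 CPM.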
